A study of Mus musculus with 8 samples.

Results

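Single-cell transcriptomes of mouse embryonic stem (mES) cells were searched for the cells that spent the smallest share of their transcripts on ribosomal proteins. In each of 2 tables of single cells, one of control and one of CX-5461-treated mES cells, the kept cells were ordered by the share of their unique molecular identifiers (UMIs, each standing for 1 captured transcript) that fell on the 76 genes of the cytosolic ribosomal proteins. The lowest 10% were taken, and are called low-RP cells here. They numbered 251 control and 403 CX-5461-treated cells, 654 of the 8760 cells in both tables and of the 6542 that passed the cell filters. All kept cells had at least 5000 UMIs, at most 10% of UMIs on mitochondrial genes and less than 0.1% on 3 fibroblast collagens. The comparison group in each table was the cells between the 25th and the 75th percentile of the same share, called mid-range cells, of which there were 1257 control and 2015 treated. Since the share itself chose the low-RP cells, the ribosomal protein genes are described below and nothing is read from them.

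The cells were mES cells derived from the inner cell mass, without an engineered allele named in the labels, grown for 2 days on gelatin with mouse embryonic fibroblast (MEF) feeders in medium with LIF and the 2i inhibitors. One group was untreated, and the other received CX-5461, an inhibitor of RNA polymerase I, the enzyme that transcribes the ribosomal RNA genes. The labels list 4 samples a group, but each group came as 1 table whose cells carry no sample of origin and were renumbered, so neither the spread over samples nor cell barcodes shared between libraries could be counted. No difference was therefore tested, and every interval given is a 95% counting interval on summed UMIs that covers counting error only.

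Ribosomal protein mRNAs are among the most abundant mRNAs of a growing cell. They start with a 5' terminal oligopyrimidine (TOP) tract, which is shared by mRNAs of many translation factors and lets mTOR signalling set their translation and stability together. In mES cells, which divide quickly, ribosome production takes a large part of transcription. The share of a cell's UMIs on these genes is a relative quantity, so fewer ribosomal protein transcripts and more of other transcripts cannot be told apart.

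In control mES cells the low-RP cells ranged from 9.13% to 25.1% of UMIs on ribosomal proteins, while the mid-range cells lay between 26.5% and 29.9%. In CX-5461-treated mES cells the low-RP cells ranged from 10.5% to 21.4% and the mid-range cells from 22.5% to 24.7%. The limit was not a gap in either table, since the last cell inside it had 25.114% and the first cell outside it 25.1346% in the control, against 21.3841% and 21.3853% in the treated table. A control cell at this limit would have lain above the mid-range of the treated cells, so "low" is meant within a table. The order of cells by this share was largely kept when each cell's UMIs were split at random into equal portions. Spearman's rho between the portions was 0.95 over 2449 control and 0.91 over 4001 treated cells with ES markers, and 89.6% of the control and 88.3% of the treated low-RP cells were chosen again from 1 portion alone.

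**Figure D1:**
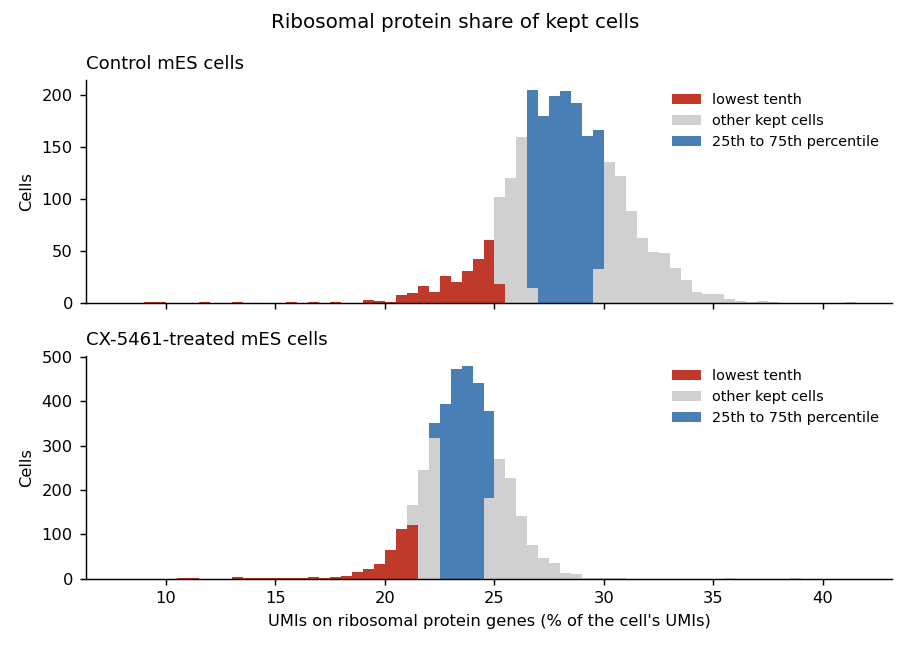
Number of kept cells (vertical axis) by the percentage of their UMIs on the 76 ribosomal protein genes (horizontal axis), with the control and the treated table in panels of their own. Red bars are the low-RP cells, blue bars the mid-range cells and grey bars the other kept cells; the low-RP cells form the lower tail of a single peak, which ends at 25.1% in the control and 21.4% in the treated table.

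The label under which these cells were proposed calls them deep ES cells, and the data go against it in part. In the control the low-RP cells held a median of 11293 UMIs and the mid-range cells 16177, so they were shallower. Treated cells of both groups held a similar number, with medians of 14650 and 14709. Most low-RP cells were ES cells by their markers. The 10 ES markers, among them Pou5f1 (encoding OCT4, the core pluripotency factor), Sox2 and Nanog, had a median of 102 UMIs per 10000 UMIs outside ribosomal proteins in the 228 control low-RP cells that reached a minimum of 20, against 105 in 1236 mid-range cells. In the 392 treated low-RP cells over that minimum the median was 98.6, against 105 in 2011 mid-range cells. A Pou5f1 UMI was found in 99.6% of these control and 99.5% of these treated low-RP cells. In the collagen-rich cells left out by the filter, which should lack the gene, it was found in 57.0% and 27.5% at median depths of 22934 and 24280 UMIs. A single Pou5f1 UMI therefore does not mark an ES cell. Background RNA and doublets of feeder and ES cells were not told apart.

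The others were not ES cells by these markers, and they took the lowest positions in the control. The 5 control cells with the lowest ribosomal protein share were macrophage-like, with 9.13% to 15.8% of UMIs on ribosomal proteins, and no other kept cell of either table was. Between them they held all 151 UMIs of Tyrobp, a signalling adaptor of myeloid cells, that were found in control low-RP cells, where the mid-range cells had 1, and the treated table had none in either group. Tyrobp was among the 6 markers that define the class, so this was in part built in. Fibroblast-like cells, which express feeder genes beyond the collagens of the filter, made up 17 control low-RP cells (6.77%, Clopper-Pearson interval 3.99 to 10.6) and 9 treated ones (2.23%, interval 1.03 to 4.20). Of all fibroblast-like kept cells, 29.3% of 58 in the control and 47.4% of 19 in the treated table were low-RP cells. Altogether 23 control low-RP cells (9.16%) were under the ES marker minimum, compared with 21 mid-range cells (1.67%). Among treated cells these numbers were 11 (2.73%) and 4 (0.199%). The 11 include a cell with markers of the 2-cell-like state, described below. Few cells lay near the minimum, since 2 control and 4 treated low-RP cells were within 5 per 10000 of it on either side.

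**Figure D2:**
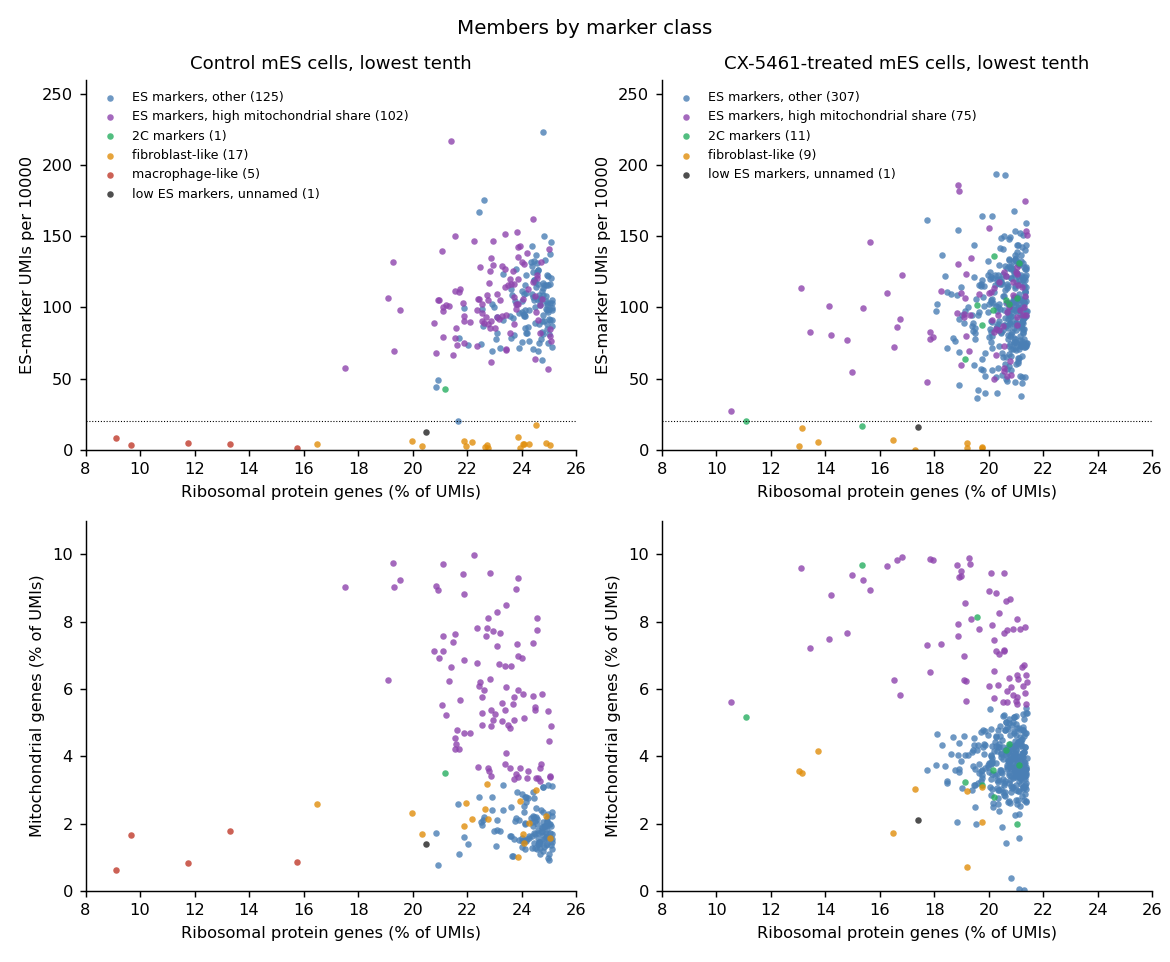
Low-RP cells of the control (left) and CX-5461-treated (right) table, each point a cell, by the percentage of UMIs on ribosomal proteins (horizontal axes) against ES-marker UMIs per 10000 UMIs outside ribosomal proteins (top) and the percentage of UMIs on mitochondrial genes (bottom). Colours are marker classes with their cell numbers, and the dotted line is the minimum of 20; the 5 macrophage-like cells are the 5 lowest control cells, and ES-marker cells of high mitochondrial share spread below the dense edge of the other ES cells.

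These non-ES cells decided which genes stood highest when all low-RP cells were summed. Levels are given as counts per 1000000 UMIs outside the ribosomal protein genes (CPM), and a gene is called past the fold when low-RP and mid-range cells differ by at least 1.5-fold, among genes with at least 100 UMIs in both groups together. In the control 9.42% of 8776 genes were past the fold upwards and 2.6% downwards. Among treated cells 3.37% and 1.56% of 11079 genes were. In both tables at once, 1.23% of 8629 genes were higher and 0.0232% lower. Ccl7 and Ccl2, chemokines that attract monocytes, led this list. The log2 ratio of Ccl7 was 3.20 in the control and 3.53 in the treated table, and 98.97% and 95.1% of its UMIs in low-RP cells came from cells under the ES marker minimum. For Ccl2 the log2 ratios were 2.84 and 4.66, and 99.4% and 96.9% of the UMIs came from these cells. Ftl1, the ferritin light chain, had log2 ratios of 2.50 and 1.87, with 94.99% and 87.2% of its UMIs from them. Of the fibroblast list, 12 of 13 measured genes were higher in the control, and 5 of 10 in the treated table, where 1 was lower. In the ES-marker cells 1 of 5 and 0 of 8 measured fibroblast genes were higher. Their summed level still moved with the low-RP cells there, with log2 ratios of 0.30 (interval 0.22 to 0.38) in the control and 0.16 (interval 0.12 to 0.21) in the treated table. At 3000 UMIs a cell, 9.65% of control and 4.85% of treated low-RP ES cells were above the 95th percentile of the mid-range cells for these genes, where 3.48% and 3.13% were. The part of feeder RNA in the results for ES-marker cells was not tested.

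The rest of the description is of the ES-marker cells. Among these, 5.18% of 8494 genes were higher and 2.7% lower in control low-RP cells, and 2.65% and 1.77% of 11039 genes in treated ones. Of the 440 genes higher in the control, the counting interval of 347 left out no change and that of 29 lay wholly past the fold. Of the 293 genes higher in the treated table, this held for 262 and 46. The genes lower were less well counted, with 82 of 229 and 127 of 195 intervals leaving out no change. In both tables at once 27 of 8398 genes (0.322%) were higher and 2 (0.0238%) lower. Across the 2464 genes with at least 1000 UMIs in each table, the log2 ratios of the tables had a Pearson r of 0.48 and a Spearman rho of 0.44, a description across genes, which are not independent replicates.

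The ribosomal protein genes chose the cells, so a lower level of most of them was built in. On the scale of all UMIs, 74 of the 76 had a lower level in low-RP than in mid-range ES cells in each table, with median log2 ratios of -0.24 in the control and -0.20 in the treated table. Among those with the lowest mean over both tables were Rpl17 with -0.36 and -0.29, and Rpl10a with -0.38 and -0.27, both components of the large subunit. Rpl5 and Rps2 were above 0, at 0.23 and 0.21 in the control and at 0.003 and 0.007 in the treated table. Few UMIs fell on Rpl5, 3048 in control mid-range ES cells where Rpl17 had 67607, and why was not tested. Rps2 has near-identical copies, between which the counting could split reads, so its value is uncertain. It had 3535 UMIs in control mid-range ES cells, whereas its pseudogene Rps2-ps10, which shares 84.3% of its 31-base words with ribosomal protein transcripts, had 107330. When the non-ES cells were added, the log2 ratio of Rps2 rose from 0.21 to 1.36 in the control and from 0.007 to 0.58 in the treated table.

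Pseudogenes that share sequence with ribosomal protein genes were lower too, but reads of ribosomal protein transcripts could be counted on them. Their lower level may thus be built into the choice of cells, and how far it is was not tested. Of 12854 annotated pseudogenes, 668 shared at least 20% of their 31-base words with ribosomal protein transcripts. They took 16.3% of the UMIs outside ribosomal protein genes in control mid-range cells and 13.5% in low-RP cells, a log2 ratio of -0.27 (interval -0.273 to -0.261). Among treated cells they took 13.5% and 11.5%, a log2 ratio of -0.23. The median over the single pseudogenes was -0.22 in the control and -0.21 in the treated table, with 182 of 256 and 275 of 299 below 0. The other pseudogenes had medians of 0.20 and 0.03. Gm10362, which shares 71.3% of its words with ribosomal protein transcripts, most with Rpl17, was 1 of the 2 genes past the fold downwards in both tables, at -0.89 and -0.68. The other was Abhd13, encoding a hydrolase domain protein, with 7 and 23 UMIs in low-RP cells and log2 ratios of -0.88 (interval -2.23 to 0.22) and -0.77 (interval -1.46 to -0.15).

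Genes that carry a 5' TOP tract but were not among the 76 ribosomal protein genes were also lower on the same scale, each by little. None of 28 measured genes of this list passed the fold in either table, but 19 in the control and 26 in the treated table were below 0, where the median of all genes was 0.08 and 0.06. The list's summed level was 36617 CPM in control low-RP cells and 42333 in mid-range cells, a log2 ratio of -0.21 (interval -0.220 to -0.198). Its treated levels were 34215 and 38852, a log2 ratio of -0.18. Eef1a1 (chr9:78478449-78489151 in mm10), the elongation factor that brings aminoacyl-tRNA to the ribosome, had 4894 against 6348 CPM in the control, log2 ratio -0.38, and 6091 against 7363 in the treated table, log2 ratio -0.27. Its neighbours in function Eef1b2 and Eef1g had -0.33 and -0.24 in the control and -0.30 and -0.23 in the treated table. Fau, which encodes a ribosomal protein fused to a ubiquitin-like protein and was not among the 76 genes, had -0.27 in the control and -0.21 in the treated table. Snhg1, a spliced host of small nucleolar RNAs, went the other way in the control alone, at 0.50 against -0.20.

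The lower level did not extend to the genes that build ribosomes. Ribosome biogenesis genes had median log2 ratios of 0.16 in the control and 0.08 in the treated table, with 1 of 83 past the fold upwards in each. Ncl, the nucleolin that binds pre-ribosomal RNA, had 0.17 and 0.14, and Npm1, which also carries a TOP tract, -0.03 and -0.11. Genes for mitochondrial ribosomal proteins had medians of 0.00 and 0.02, with 0 of 78 past the fold in either direction. Of the annotated loci that overlap ribosomal RNA repeats, 2 of 4 measured in the control and 2 of 3 in the treated table were above 0, with medians of -0.17 and 0.24, and 0 passed the fold. The locus Gm42418 had 0.28 (interval 0.11 to 0.44) in the control and 0.32 (interval 0.17 to 0.46) in the treated table.

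Chaperones of the endoplasmic reticulum (ER) stood high in both tables. These proteins fold secreted and membrane proteins, and their genes are induced together by the unfolded protein response. In the control 20 of 24 measured genes of this list were above 0, with 6 past the fold upwards and 0 downwards and a median log2 ratio of 0.40. Among treated cells, 24 of 25 were above 0, with 3 past the fold upwards and 0 downwards and a median of 0.35. Over all genes 5.18% and 2.65% were past the fold upwards. The list's sum was 4055 CPM in low-RP and 3222 in mid-range control cells, and 4745 and 3835 in treated ones. Every cell was also reduced to 3000 UMIs outside ribosomal proteins. For this list, 21.1% of 228 control and 17.3% of 392 treated low-RP cells were then above the 95th percentile of the mid-range cells. Of the mid-range cells, 3.56% and 4.97% were. Such an excess was not particular to ER chaperones. In the control, splicing factors had 18.4% against 4.61% and cytosolic heat shock genes 16.2% against 4.69%. Their treated values were 7.91% against 3.88% and 10.2% against 4.92%. Mitochondrially encoded genes had 41.7% against 4.94% in the control and 17.1% against 5.02% in the treated table. Glycolysis and hypoxia genes showed no excess, at 3.95% against 4.53% and 2.81% against 4.43%.

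Hspa5 (chr2:34771970-34777547 in mm10, ENSMUSG00000026864.13), which encodes BiP, the main ER chaperone of the HSP70 family and the sensor partner of the unfolded protein response, led the list. It had 585 UMIs in control low-RP and 1940 in mid-range cells, or 297.5 and 124.2 CPM, a log2 ratio of 1.26 (interval 1.12 to 1.39). In the treated table it had 1389 and 4128 UMIs, or 295.0 and 173.9 CPM, a log2 ratio of 0.76 (interval 0.67 to 0.85). Low-RP cells thus had about the same level in both tables, and the mid-range cells differed more. At 3000 UMIs a cell the mean was 1.03 against 0.397 Hspa5 UMIs in the control and 1.00 against 0.537 in the treated table. Hsp90b1 (chr10:86690209-86705509), the ER member of the HSP90 family, had log2 ratios of 0.84 (interval 0.73 to 0.96) and 0.51 (interval 0.44 to 0.58). Pdia4, a disulfide isomerase, had 0.65 and 0.66, and Dnajc3, an inhibitor of the kinase PERK and a BiP co-chaperone, 0.58 and 0.62. The lectin chaperones Calr and Canx had 0.49 and 0.70 in the control and 0.44 and 0.20 in the treated table. Manf, a secreted protein of the same response, had 0.25 and 0.52. Sec61b, a subunit of the translocation channel and the list's gene with the most UMIs, had -0.16 and -0.04. Targets of ATF4 and CHOP, the branch of the response that is shared with amino acid stress, stood lower, with medians of 0.07 and 0.18 and 1 of 27 and 2 of 28 past the fold upwards. Heat shock genes of the cytosol had 0 of 16 and 0 of 17 past the fold, with medians of 0.11 and 0.08.

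**Figure D3:**
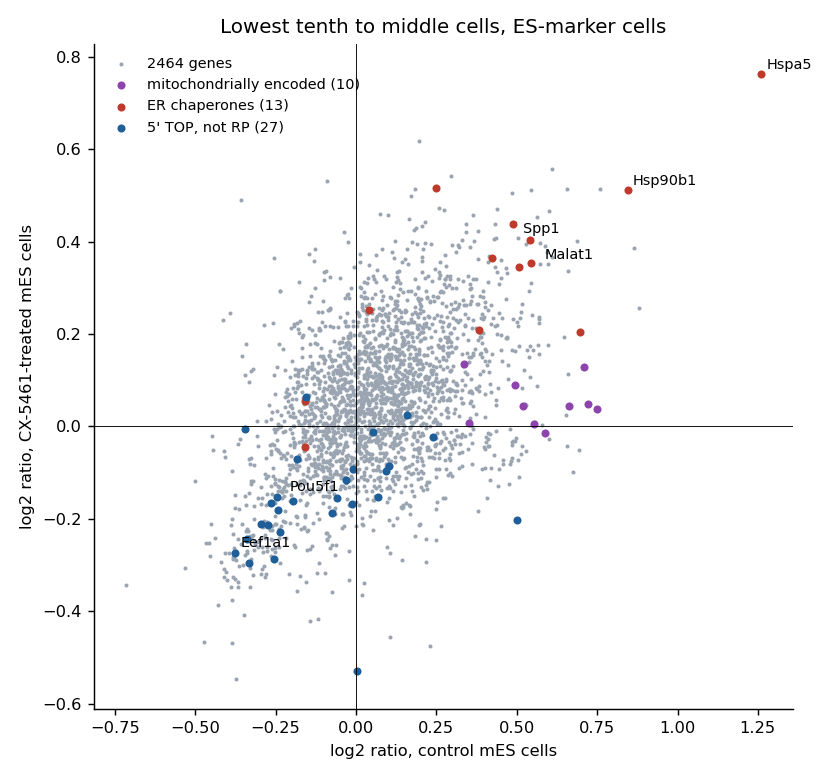
Log2 ratio of low-RP to mid-range ES-marker cells in the control (horizontal axis) and in the CX-5461-treated table (vertical axis), each point 1 of the 2464 genes with at least 1000 UMIs in each table. ER chaperone genes are red, genes with a 5' TOP tract blue and mitochondrially encoded genes purple; Hspa5 stands alone at 1.26 and 0.76, and most of the blue points lie below 0 in both tables.

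Over the whole order of cells, both groups changed step by step and not in the lowest cells alone. The kept ES-marker cells were cut into groups of 10% by ribosomal protein share, and the summed ER chaperone level fell from 4054 CPM in the lowest group to 2766 in the highest in the control, and from 4745 to 3332 in the treated table. The TOP genes rose from 36604 to 45151 and from 34215 to 42328. The fall was not particular to ER chaperones. Proteasome genes fell from 11598 to 7445 and from 11955 to 10256, and ribosome biogenesis genes from 21269 to 16300 and from 15722 to 14179. Splicing factors fell from 8574 to 6813 and from 6690 to 5889. Genes of translation initiation and elongation went the other way in the treated table alone, from 28117 to 31297. In the control they had 28467 in the lowest group, 30353 in group 5 and 28838 in the highest. The median mitochondrial share in the control, in contrast, was 2.78% in the lowest group and 1.82% in the next, so it set the lowest group apart. Its treated values were 4.02% in the lowest group and 3.78% in the next.

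**Figure D4:**
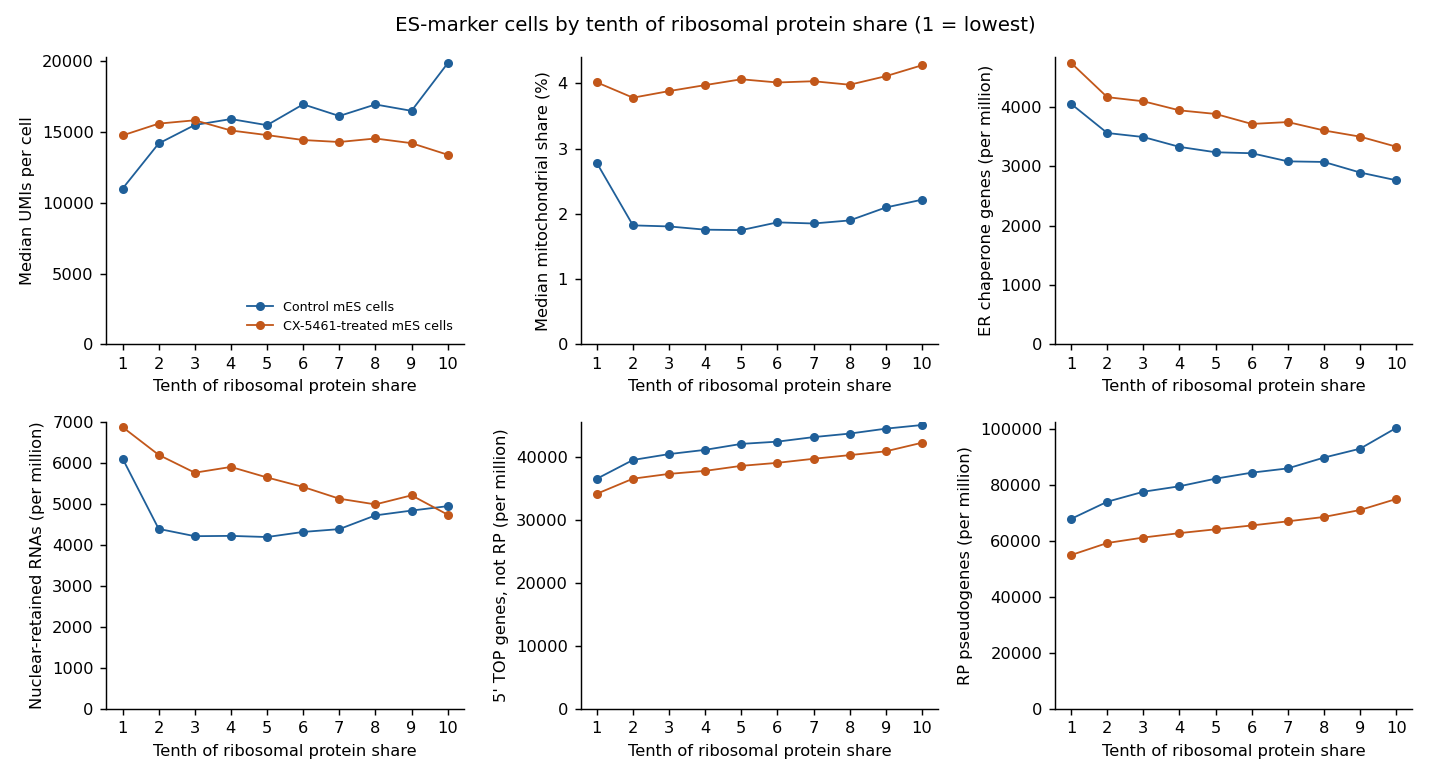
Kept ES-marker cells in 10 groups from the lowest (1) to the highest (10) ribosomal protein share, for the control (blue) and the CX-5461-treated table (orange). The panels give the median UMIs per cell, the median mitochondrial share in percent and the summed level of 4 gene groups in CPM; ER chaperones fall and TOP genes rise along the whole axis, while depth and mitochondrial share of the control differ most in group 1.

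Mitochondrial share and depth moved with these results. Of the 228 control low-RP cells with ES markers, 43.4% had under 10000 UMIs, against 6.07% of the mid-range cells, and in the treated table this was 17.1% against 7.41%. Leaving out cells with markers of the 2-cell-like (2C) state, 102 control and 75 treated low-RP cells exceeded the 95th percentile of the mitochondrial share of mid-range cells, which was 3.21% and 5.48%. These high-mitochondrial cells held medians of 6659.5 and 10349 UMIs, and the other 125 and 307 low-RP cells 13305 and 15236. Within low-RP cells Spearman's rho between the ribosomal protein and the mitochondrial share was -0.55 in the control and -0.22 in the treated table, over cells that share a denominator and a library and were cut on the first of these shares. Over all kept ES-marker cells it was 0.04 and 0.09, and within mid-range cells 0.06 and 0.05. The choice of cells rested little on this denominator, since 92.8% and 92.6% of low-RP cells were chosen again by the share of UMIs outside mitochondrial genes. Both groups are therefore given apart against the mid-range ES cells without high mitochondrial share. In the low-mitochondrial group 4.82% of 8238 genes were higher and 3.8% lower in the control, and 2.31% and 2.3% of 10760 in the treated table. In the high-mitochondrial group, which has fewer UMIs, these were 15.6% and 13.1% of 8104 genes and 11.2% and 9.9% of 10397.

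The ER chaperone list stood highest in the high-mitochondrial group. There 15 of 22 and 16 of 25 genes were past the fold upwards, with medians of 0.84 and 0.69. In the low-mitochondrial group 2 of 23 control genes were higher and 1 lower, with a median of 0.23, and 0 of 25 treated genes passed the fold, with a median of 0.28 and 24 above 0. Hspa5 had a log2 ratio of 2.03 (interval 1.85 to 2.20) in high-mitochondrial and of 0.72 (interval 0.52 to 0.90) in other control low-RP cells. Its treated values were 1.59 (interval 1.43 to 1.74) and 0.56 (interval 0.46 to 0.66). Its level was thus higher than in mid-range cells in both groups, and the part of mitochondrial share and depth in it was not tested.

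Of the nuclear-retained long RNAs, 7 of 12 control and 1 of 11 treated genes were past the fold upwards in high-mitochondrial cells. Over all genes 15.6% and 11.2% were, so the treated count was not above its share. In the other low-RP cells 2 of 12 and 1 of 12 were, where 4.82% and 2.31% of all genes were. The difference between the tables was not tested. Malat1 (chr19:5795690-5802672), an abundant RNA of nuclear speckles, had 5096 against 3430 CPM in control low-RP and mid-range ES cells, a log2 ratio of 0.57, and 5923 against 4645 in the treated table, a log2 ratio of 0.35. In the control its log2 ratio was 1.25 (interval 1.20 to 1.29) in high-mitochondrial cells and 0.11 (interval 0.07 to 0.15) in the others. Treated cells of both groups had 0.37. Kcnq1ot1, an imprinted antisense RNA, had 1.37 and 0.09 in the control and 0.36 and 0.19 in the treated table.

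Replication-dependent histones had lower summed levels in the high-mitochondrial cells of both tables. Of the histone list, 24 of 39 control genes were past the fold downwards and 0 upwards, with a summed log2 ratio of -0.83 (interval -0.89 to -0.77), and among treated genes 9 of 35 were lower and 2 higher, with -0.35 (interval -0.44 to -0.26). In the low-mitochondrial cells the sums were instead 0.41 and 0.15. These histone genes are near-identical in sequence, so their single values are uncertain. Over all genes, 13.1% were lower and 15.6% higher in high-mitochondrial control cells, and 9.9% and 11.2% in treated ones. Of the glycolysis and hypoxia list, 4 of 18 control genes were lower and 2 higher in these cells, with a median of -0.22. Among treated genes 4 of 23 were lower and 3 higher, with a median of -0.09. Beside the shares over all genes, these counts are not read as a result. Among its most abundant genes, Gapdh, the glycolytic dehydrogenase, had log2 ratios of -0.91 and -0.55 in high-mitochondrial cells and of -0.06 and 0.00 in the others. Mif, a secreted cytokine counted with the glycolysis and hypoxia list, had -0.71 and -0.54 against -0.09 and -0.11. By contrast, the TOP genes were lower in each group, with summed log2 ratios of -0.31 and -0.19 in high-mitochondrial and of -0.17 and -0.18 in the other low-RP cells.

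**Figure D5:**
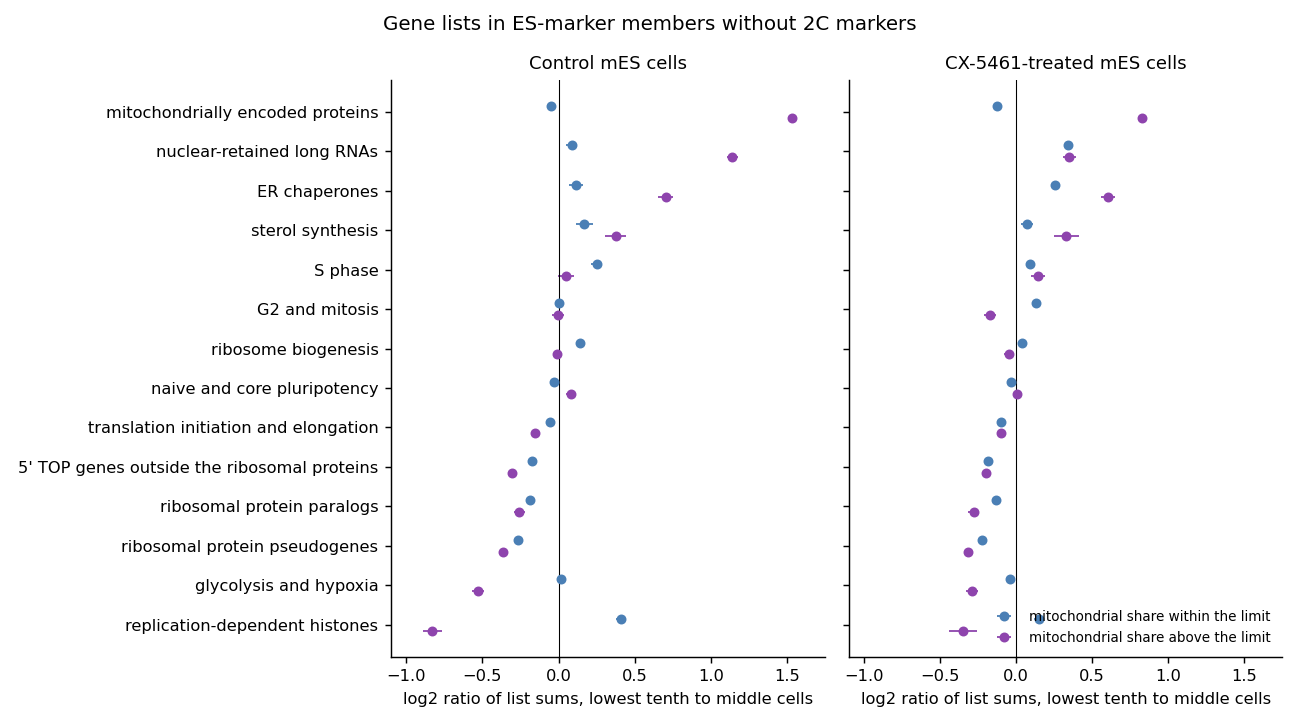
Log2 ratio of summed list levels, low-RP to mid-range ES-marker cells without 2C markers, in the control (left) and CX-5461-treated (right) table. Both colours are set against mid-range cells within the mitochondrial limit, so the mitochondrially encoded genes of the purple points were set high by the split. Blue points are low-RP cells within the mitochondrial limit, purple points those above it, and bars are 95% counting intervals; the ribosomal protein pseudogenes and TOP genes are below 0 in all 4 groups and the ER chaperones above 0, while histones change sign between the colours.

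Cells with markers of the 2C state, the rare state that resembles the 2-cell embryo and that the study followed after CX-5461, were counted by at least 3 UMIs of 8 markers such as Zscan4c and Tcstv3. There were 11 among treated low-RP cells (2.73%, interval 1.37 to 4.83) and 24 among mid-range cells (1.19%, interval 0.765 to 1.77). The 402 treated cells with the highest ribosomal protein share held 10. In the control there was 1 (0.398%, interval 0.0101 to 2.20) against 5 (0.398%). One treated 2C cell held the second-lowest place of its table, with 11.1% of UMIs on ribosomal proteins and 229 marker UMIs. Another was in place 12, with 15.3%, and the remaining 9 were between places 55 and 313. The cell in place 12 had 16.4 ES-marker UMIs per 10000, so it was under the ES marker minimum. In treated ES-marker low-RP cells, and thus without the cell in place 12, 15 of 22 measured 2C genes were past the fold upwards, with a median log2 ratio of 0.88. Few cells carried this result. Tcstv3 had 95 UMIs in low-RP cells, of which 94 came from 1 cell, and Gm8994 had 238, of which 161 came from 1 cell. Over all treated low-RP cells 18 of 22 were past the fold upwards and the list's median was 1.16. With the cells under 10000 UMIs left out the median was -0.03. Without the cells with 2C markers the list had 5 measured genes, of which 1 was past the fold upwards. With a low mitochondrial share 3 of 5 were, and with a high one 0 of 3, where 1 was lower. Of 2 genes measured in the control without these cells, 0 passed the fold. Calcoco2, an autophagy receptor that the list holds and that many cells express, had log2 ratios of 0.53 (interval 0.38 to 0.68) in the control and 0.40 (interval 0.31 to 0.48) in the treated table. The control's value for Zscan4-ps3, 57 UMIs, came from 1 cell.

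Pluripotency and cell cycle genes differed little. Of the pluripotency list, 2 of 36 control genes were higher and 1 lower, with a median log2 ratio of 0.12, and 0 of 35 treated genes passed the fold, with a median of 0.04. Pou5f1 had 1144 against 1336 CPM in the control, log2 ratio -0.22, and 900.4 against 999.3 in the treated table, log2 ratio -0.15. Nanog had 0.19 and 0.20, Sox2 -0.11 and -0.09, and Spp1, a secreted phosphoprotein that the list holds, 0.50 and 0.41. S phase genes had medians of 0.13 and 0.12 with 1 of 43 and 1 of 45 past the fold upwards, and genes of G2 and mitosis medians of 0.12 and 0.11 with 2 of 53 and 0 of 53. Targets of p53, which CX-5461 is known to activate, had medians of 0.03 and 0.03, with 1 of 28 lower in the control and 1 of 36 higher in the treated table. Sterol synthesis genes had medians of 0.16 and 0.15 with 1 of 26 higher in each, and proteasome genes 0.11 and 0.12 with 0 of 36 and 0 of 37. Splicing factors had 0.20 and 0.09, with 0 of 32 past the fold in each table.

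Other single genes were past the fold in both tables or stood high in one of them. Of the Nodal and Lefty list, which holds further TGF-beta family genes, 3 of 9 control genes were higher and 1 lower, with a median of 0.13, and 2 of 12 treated genes were higher and 1 lower, with a median of 0.16. Its member Bmp4, a signal of that family, had 49 and 73 UMIs in low-RP cells and log2 ratios of 0.90 (interval 0.42 to 1.36) and 0.74 (interval 0.33 to 1.12). Zp3, which encodes an egg coat glycoprotein, had 0.95 and 0.69, and Ccnd2, encoding cyclin D2, 0.98 and 0.75. Ccnd2 was also among the highest genes over all low-RP cells, where 88.6% and 75.7% of its UMIs came from cells under the ES marker minimum. Others stood high in 1 table. Gm364, a gene model on the X chromosome, had 29.5 against 8.39 CPM in the control, log2 ratio 1.81 (interval 1.34 to 2.27), and 0.38 (interval -0.18 to 0.91) in the treated table. Sfn, encoding 14-3-3 sigma and the 1 gene of the p53 list that was higher in treated cells, had 0.28 (interval -0.16 to 0.69) in the control, and 0.98 (interval 0.84 to 1.12) in the treated table, where 121.7 stood against 61.5 CPM. Prdx1, a peroxidase, had 0.44 and 0.08.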

How the data were processed

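Whole-number UMI counts per gene and cell, 1 table for each treatment, were deposited by the authors, who made them from 10x Genomics 3' libraries (V2 reagents). The submitters' processing notes name mm10 and Seurat 2.3.4, the study's methods name HISAT2 in place of Bowtie in a published pipeline for repeat expression, and which of them made these gene counts is not given in the sources used here. Of 54146 gene identifiers, 54079 matched a GENCODE mouse annotation of that build without their version. Cells with under 5000 UMIs (1183 control, 335 treated), over 10% mitochondrial UMIs (9, 413) or at least 0.1% collagen UMIs (133, 145) were left out. Doublets were not removed. UMIs were summed over low-RP and mid-range cells, and ratios of levels (CPM, UMIs per 1000000 outside the 76 ribosomal protein genes) were given exact conditional binomial intervals (95%). Sequence shared with ribosomal protein transcripts was measured over 31-base words of the annotated transcripts. Groups follow the treatment label. Python 3.11.15, numpy 2.4.6, pandas 2.3.3, scipy 1.17.1 and matplotlib 3.10.9 were used, and the steps were tested on simulated data.

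The cells and all gene lists were chosen with earlier results of these data known. Named genes were the 12 with the highest smaller and the 12 with the lowest larger log2 ratio of both tables, the 4 highest and 4 lowest of each table, Pou5f1, Malat1, Eef1a1, the 2 to 4 genes of each list with the most UMIs, and the 3 lowest and 3 highest ribosomal protein genes. The ES marker minimum, the marker classes, the mitochondrial split, the pseudogene set, 2 lists of ribosomal protein pseudogenes and paralogs, the same rule within ES-marker cells and 6 alternatives were added after the values had been seen. Abhd13, Gm10362, Snhg1, Canx, Dnajc3, Nanog and Sox2 fall partly outside the rule and were named after their values had been seen. Values of 2 genes that this rule or these lists name are not reported here.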

Additional observations from a re-analysis of the deposited data

How the results depend on the processing

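Each treatment was 1 table without sample of origin, so no spread between samples was measured. No paired analysis was possible because the columns carry no replicate number and no result came from a test. Up to 18 alternative settings were tried, 6 of them chosen after seeing the data. The ER chaperone median kept its sign in 16 of 16, between 0.26 and 0.40 for treated and between 0.23 and 0.71 for control cells. The TOP median did so too, from -0.19 to -0.10 and from -0.35 to -0.08, and Hspa5 ranged from 0.52 to 0.93 and from 0.72 to 1.59. The histone median of the control, in contrast, kept its sign in 7 of 16. Named genes past the fold changed sign in 18 values under the later and in 7 under the other alternatives. Where no cause is given, the cause was not tested.

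Gene counts moved with the share of cells taken, the minimum of UMIs per gene, the depth and the kind of cells. Shares of the genes that reached the UMI minimum stand in brackets, since settings differ in how many genes reach it. The genes higher were 827 (9.42%) in the control and 373 (3.37%) in the treated table. They became 1379 (16.2%) and 642 (5.95%) with the lowest 5% of cells, and 362 (3.94%) and 196 (1.7%) with the lowest 20%. With a minimum of 30 UMIs they were 1865 (15.4%) and 999 (6.96%), and with no minimum 4986 (22.2%) and 3299 (13.3%). In the same order, the genes lower, 228 (2.6%) and 173 (1.56%), became 734 (8.6%) and 420 (3.89%), 102 (1.11%) and 79 (0.685%), 713 (5.91%) and 677 (4.72%), and 1221 (5.43%) and 1451 (5.84%). After reduction to 3000 UMIs a cell, where fewer genes reached the minimum, control genes higher were 299 (6.46%). Control genes lower were then 138 (2.98%), a lower number but not a lower share. Control genes higher were 538 (6.23%) with at least 10000 UMIs a cell and 536 (8.07%) with cells chosen on a random portion of UMIs. They were 440 (5.18%) in ES-marker cells, 436 (5.15%) without 2C markers and 397 (4.82%) without high mitochondrial share as well. With cells chosen anew among ES-marker cells they were 395 (4.64%). Treated genes higher fell to 242 (2.21%) in ES-marker cells without 2C markers. With the sequence-sharing pseudogenes also left out of the total, genes higher were 687 (7.83%) in the control and 316 (2.85%) in the treated table. Genes lower were then 283 (3.22%) and 208 (1.88%).

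Values of the chemokines and of Ftl1 turned in part of the settings that left out non-ES cells, which carried most of their UMIs. Control Ccl7 turned in none that left out these alone. Ccl2 had log2 ratios of -0.654 in control ES-marker cells, -0.655 without 2C markers, -1.09 without high mitochondrial share as well and -0.791 with cells chosen anew; its treated values were -0.0925, -0.0032 and, chosen anew, -0.128. Ccl7 had -0.0984 without 2C markers and -0.503 without high mitochondrial share as well in the control, and -0.152, -0.0786 and, chosen anew, -0.188 in treated cells. Treated Ftl1 had -0.0993, -0.105, -0.067 and -0.0957 in the same order of settings as control Ccl2. Genes of the 2C list, whose UMIs came from few cells, turned under limits on the cells kept. With mitochondrial share at most 5% and with at least 10000 UMIs a cell, treated Gm8994 had -2.13 and -2.32, Tcstv3 -2.10 and -4.42, and Zscan4-ps3 -0.0518 and -0.783. Zscan4-ps3 also had -1.27 without 2C cells, -0.962 without high mitochondrial share as well, and -2.38 in the control at 10000 UMIs. The treated median of the 2C genes was -0.033 at 10000 UMIs.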
